A study of Mus musculus with 10 samples.

Results

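The genes of the ErbB growth factor system were examined in mouse embryos with and without *Grhl2*, in the first pharyngeal arch (PA1). They were chosen by gene name from the table of counts for protein-coding genes: 4 receptors (*Egfr*, *Erbb2*, *Erbb3* and *Erbb4*) and 6 ligands of the epidermal growth factor (EGF) family (*Nrg1*, *Egf*, *Tgfa*, *Hbegf*, *Btc* and *Areg*), 10 of 22114 genes in all. The rule itself uses only gene names. Of the 10 genes, 8 passed the filter on low counts (at least 10 reads in at least 1 arch) and were tested, and *Btc* and *Areg* were not.

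ErbB receptors are receptor tyrosine kinases that lie on the cell surface and work in pairs. A ligand is made as a membrane-bound precursor and is cut free by metalloproteases of the ADAM family, after which it binds a receptor and drives pairing with a second one. ERBB2 binds no known ligand and serves as the preferred partner of the others, whereas ERBB3 has little kinase activity of its own and signals mainly through a partner. In the embryonic head, EGF receptor signalling acts in surface epithelium, and neuregulin signalling through ERBB3 and ERBB2 is needed by neural crest-derived glia and Schwann cell precursors of the cranial nerves. *Grhl2* encodes a transcription factor of surface epithelia, so the comparison asks whether the receptors and ligands of this system change when that factor is missing from the arch.

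PA1 was dissected from male C57BL/6 embryos at E10.5, 5 with the genotype *Grhl2*+/+ and 5 with *Grhl2*-/-, and RNA from each arch was made into 1 stranded, ribosome-depleted library. The null allele is constitutive, so every cell of a *Grhl2*-/- arch carried it. Each library held the epithelium, the neural crest-derived mesenchyme and all other cells of the arch together, and a change confined to the epithelium would be measured against the RNA of the whole arch. Arches are numbered 1 to 5 within a genotype in sample order, and a number does not pair a wild-type arch with a *Grhl2*-/- arch.

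Total counts were between 22188454 and 28801378 reads per arch, and 3 reads, taken as the floor of detection, correspond to between 0.104 and 0.136 CPM (counts scaled to the size of the library) in an arch. This floor covers counting error only. *Grhl2* itself was at 35.6 ± 3.29 CPM (SD, n = 5) in wild-type arches and 4.53 ± 1.45 CPM (n = 5) in *Grhl2*-/- arches, with between 81 and 178 reads left in each of the latter. Summed levels of 9 surface epithelium markers ranged from 320.2 to 428.7 CPM over wild-type and from 177 to 260.7 CPM in *Grhl2*-/- arches, and 5 of the 9 fell. Of those that fell, *Cdh1*, *Epcam* and *Esrp1* had GRHL2 bound at their loci in PA1 by the paper's chromatin immunoprecipitation. The sum is therefore not a measure of the amount of epithelium. Wild-type arches 1 and 2 stood apart from the other 8 arches: 8 cranial sensory neuron markers summed to 42.3 and 38.1 CPM there, against 244.3 to 891.9 CPM elsewhere. Markers of ganglion glia and Schwann cell precursors were likewise lowest in these arches, at 20 and 20.7 CPM. Where leaving them out moved a value most, among them those of *Erbb3*, *Erbb4* and *Nrg1*, both values are given. Of the marker genes of 9 cell types that an arch sample could hold, none was at 0 in all arches.

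Across the family, no gene passed the threshold. The test was limma-voom with Benjamini-Hochberg adjustment over all 14561 genes tested, and genes at a false discovery rate (FDR) below 0.01 were called. By this test 0 of 8 members fell and 0 rose in the *Grhl2*-/- arches, where 1.96% of all genes tested were called (1.09% lower and 0.879% higher). At an unadjusted p under 0.05, 1 member (*Erbb4*) was counted, against 28.5% of all genes. The edgeR quasi-likelihood test and DESeq2 also called 0 of the 8. The median log2 fold change of the 8 members was 0.07, and that of all genes tested was 0.01. In 1 of the 8 members the 5 *Grhl2*-/- arches lay entirely on 1 side of the 5 wild-type arches, as they did in 8.88% of all genes tested. These are the values over dissected arches, in which fewer cells of a type and less RNA per cell cannot be told apart.

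**Figure D1:**
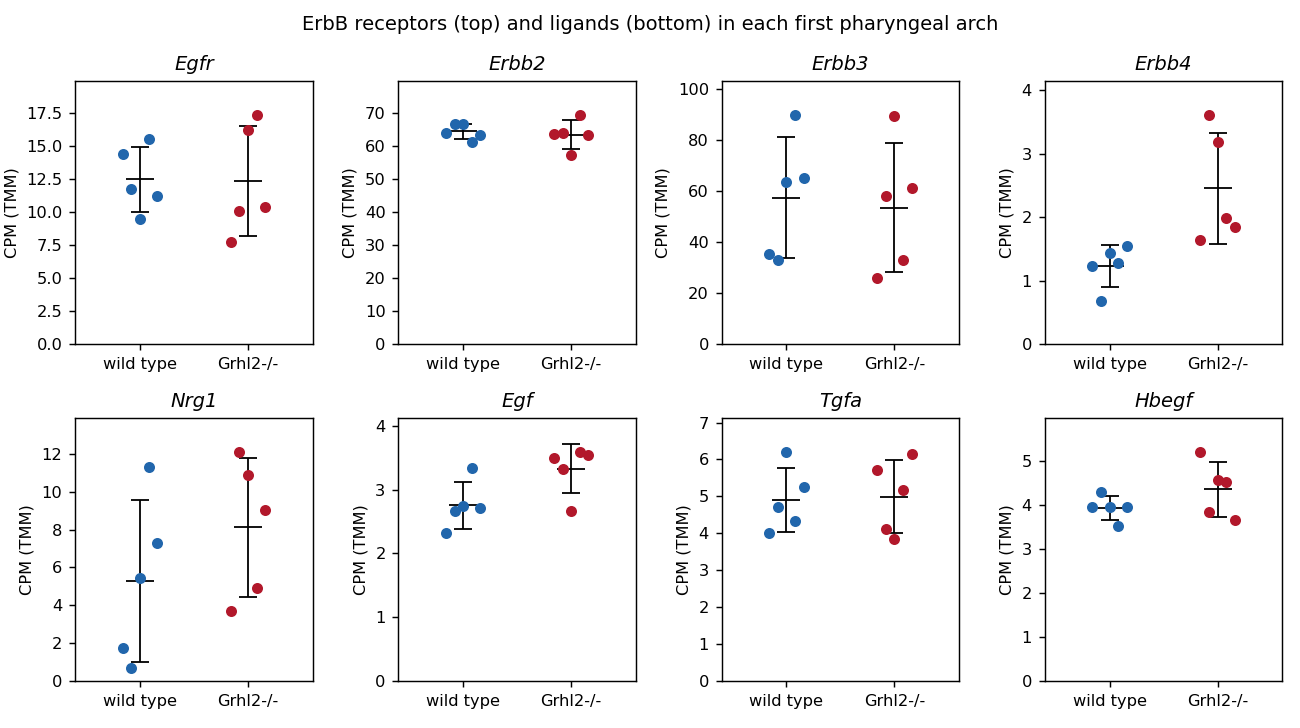
Level of each tested ErbB receptor (top row) and ligand (bottom row) in every arch, in CPM after TMM normalization. Each point is 1 arch (blue, wild type; red, *Grhl2*-/-), and the bars give the mean and SD of 5 arches. *Erbb2* varied least, *Erbb3* and *Nrg1* spread widely in both genotypes, and only in *Erbb4* do the points of the genotypes not overlap.

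Receptors and ligands differed widely in abundance. Expressed per kilobase of exon, which allows levels of different genes to be compared, *Erbb2* stood first in wild-type PA1 with 12.3 CPM per kb (range 11.7 to 12.8). *Erbb3* followed at 9.56 CPM per kb, with a range (5.46 to 14.9) that contained that of *Erbb2*. *Egfr* came next at 1.1 CPM per kb (0.837 to 1.37), and no wild-type arch had as much *Egfr* as the lowest had *Erbb3*. The ligands *Hbegf* (0.816 CPM per kb, range 0.729 to 0.892) and *Tgfa* (0.755, range 0.616 to 0.956) lay close to *Egfr*, and their ranges overlapped with it and with each other. *Nrg1* averaged 0.51 CPM per kb, with a range of 0.066 to 1.09 that covered all of *Egf* at 0.244 (0.205 to 0.297). *Erbb4* was the least abundant tested member at 0.0995 CPM per kb (0.0553 to 0.124), below *Egf* in every wild-type arch. The order of the 4 receptors in *Grhl2*-/- PA1 was the same by mean, with *Erbb2* at 12.2, *Erbb3* at 8.91, *Egfr* at 1.09 and *Erbb4* at 0.199 CPM per kb. These levels use the union of all annotated exons. With the length of the longest coding transcript in its place *Hbegf* was at 1.66, *Egfr* at 1.22, *Tgfa* at 1.08 and *Nrg1* at 0.975 CPM per kb. The order of *Hbegf* and *Egfr* thus depends on the length used, whereas the order among the tested ligands was the same by mean.

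*Erbb2* (11:98412470-98437716, plus strand, GRCm38), the partner receptor without a ligand, was the steadiest member. In wild-type arches 1 to 5 it was at 64, 66.6, 66.7, 61 and 63.3 CPM, and in *Grhl2*-/- arches 1 to 5 at 63.5, 63.8, 57.1, 69.2 and 63.4 CPM. The groups overlapped fully, with both the lowest and the highest arch among the *Grhl2*-/- ones. The coefficient of variation was 3.77% in wild-type and 6.78% in *Grhl2*-/- arches. The log2 fold change was -0.02 (SE 0.0518, FDR 0.81 by limma-voom), and its 95% confidence interval of -0.14 to 0.09 corresponds to a *Grhl2*-/- level of between 0.91 and 1.07 times the wild-type level. The epithelial marker sum of the same libraries was lower in every *Grhl2*-/- arch, as given above. An annotated gene on the opposite strand, *Mien1*, shares exon sequence with *Erbb2*. The libraries keep strand and the deposited counts are named as reverse-strand counts, but the counting options are not given in the sources used here.

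*Egfr* (11:16752203-16918158, plus strand), the receptor for EGF, TGF-alpha, amphiregulin and other ligands, did not differ beyond its spread. Its level was 14.4, 11.7, 9.48, 15.5 and 11.2 CPM in wild-type arches 1 to 5. In *Grhl2*-/- arches 1 to 5 it was 7.74, 10.1, 16.2, 17.3 and 10.4 CPM. The *Grhl2*-/- arches included both the lowest and the highest values, and the coefficient of variation was 33.7% there against 19.6% in wild type. Means were 12.4 ± 2.44 and 12.3 ± 4.16 CPM (SD, n = 5 each), for a log2 fold change of -0.04 (SE 0.22, 95% confidence interval -0.52 to 0.44, FDR 0.925 by limma-voom). The interval still holds a fall to 0.697 times and a rise to 1.36 times the wild-type level.

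*Erbb4* (1:68032186-69108059, minus strand), a neuregulin receptor with a kinase domain of its own, was the only member whose genotypes separated. Wild-type arches 1 to 5 held 27, 19, 41, 35 and 38 reads, or 1.23, 0.683, 1.43, 1.27 and 1.54 CPM. *Grhl2*-/- arches 1 to 5 held 46, 93, 92, 56 and 48 reads, or 1.64, 3.6, 3.18, 1.99 and 1.85 CPM. Every *Grhl2*-/- arch was above every wild-type arch, by a narrow margin between wild-type arch 5 and *Grhl2*-/- arch 1, whereas *Grhl2*-/- arches 2 and 3 stood well above the rest. This separation in the upward direction held for 4.22% of all genes tested.

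Mean *Erbb4* was 1.23 ± 0.329 CPM without the mutation and 2.45 ± 0.879 CPM with it (SD, n = 5 each). The log2 fold change was 0.97 (SE 0.29, 95% confidence interval 0.34 to 1.61), a 1.96-fold difference with bounds of 1.26 and 3.04. Its FDR by limma-voom was 0.0609 (unadjusted p = 0.00602), above the threshold. The FDR was 0.0449 with edgeR, 0.0125 with DESeq2 and 0.0387 with voomWithQualityWeights, and it ranged from 0.0311 to 0.136 when each arch was left out in turn. Without wild-type arches 1 and 2 the log2 fold change was 0.71 with an FDR of 0.256. Neural tube markers moved with *Erbb4* between the genotypes: 7 of them summed to between 29.9 and 49.1 CPM over wild-type and between 59.5 and 103.7 CPM over *Grhl2*-/- arches, with no overlap. The arch with the highest neural tube sum, *Grhl2*-/- arch 1, had the lowest *Erbb4* of its genotype, and the correlation of *Erbb4* with these markers within genotypes was 0.17 over 10 arches. *Erbb4* deviations correlated at 0.65 with those of the sensory neuron sum and at 0.61 with those of the glial sum. With a neuron or a glia covariate in the fit, alternatives chosen after seeing the data, the log2 fold change was 0.69 (FDR 0.163) or 0.66 (FDR 0.206). The part of neural tube cells in the *Erbb4* difference was not tested.

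Of the members with a promoter sequence at hand, *Erbb4* alone has the core of the GRHL recognition motif in its window, and its sequence is shown for that reason, beside that of the steady *Erbb2*. Windows of 300 bases around the start site, from RefSeq on GRCm38.p6, were matched for 7 members, which have 8 windows. The full motif AACCGGTT (both strands, palindromic) was in 0 of these 8 windows and in 48 of 32851 windows of all genes (0.146%). The shorter core AACCGG, read on either strand as AACCGG or CCGGTT, was in 1 of the 8 member windows and in 6.83% of all windows, with full matches counted among the core ones. In *Erbb4* the core is read as CCGGTT, and its first base lies at position -156 from the start site. Below, the 250 bases upstream of each start site are written 5′ to 3′ on the strand of the gene, with the core in capitals. The *Erbb4* stretch is chr1:69108060-69108309 (minus strand) and that of *Erbb2*, which holds no match, is chr11:98412234-98412483 (plus strand), both GRCm38.p6.
Erbb4: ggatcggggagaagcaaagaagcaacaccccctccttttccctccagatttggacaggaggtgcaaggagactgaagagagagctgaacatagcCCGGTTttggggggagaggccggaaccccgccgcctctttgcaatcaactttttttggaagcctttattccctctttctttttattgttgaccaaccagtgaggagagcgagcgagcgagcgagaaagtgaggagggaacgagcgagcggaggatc
Erbb2: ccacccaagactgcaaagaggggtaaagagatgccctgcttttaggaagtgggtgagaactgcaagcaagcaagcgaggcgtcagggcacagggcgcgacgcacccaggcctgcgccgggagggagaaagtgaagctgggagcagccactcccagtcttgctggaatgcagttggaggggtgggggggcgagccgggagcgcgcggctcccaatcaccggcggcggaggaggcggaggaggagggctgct
These letters describe the window and do not show binding.

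The genes whose levels were most like *Erbb4* over the 10 arches, by Pearson correlation of deviations from the genotype mean in log2 CPM among 12691 genes, were *Doc2b* (0.95), *Ypel4* (0.95) and *Zc2hc1a* (0.92). Values of a gene pair come from the same libraries, and the likeness is a description.

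*Erbb3* (10:128567523-128589652, minus strand), the neuregulin receptor of neural crest-derived glia, varied more within each genotype than between them. Wild-type arches 1 to 5 were at 35.5, 32.9, 63.8, 89.8 and 65.4 CPM. *Grhl2*-/- arches 1 to 5 were at 25.9, 58.3, 89.4, 33.1 and 61.4 CPM. Both genotypes thus held arches near 30 CPM and an arch near 90 CPM, and the groups overlapped over most of their range. The coefficient of variation was 41.1% in wild-type and 47.2% in *Grhl2*-/- arches. The log2 fold change was -0.15 (SE 0.358, 95% confidence interval -0.93 to 0.64), with an FDR of 0.822 by limma-voom.

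The level of *Erbb3* followed that of ganglion glia and Schwann cell precursor markers from arch to arch. The list, which includes *Sox10* and *Foxd3*, summed to 20, 20.7, 88.9, 133.5 and 98.6 CPM in wild-type arches 1 to 5 and to 73.1, 136.9, 175.3, 81 and 140.3 CPM in *Grhl2*-/- arches 1 to 5. Of its 6 genes 0 were called, with a median log2 fold change of 0.95. Taken as deviations from the genotype mean over the 10 arches, *Erbb3* and the marker sum correlated at Pearson's r of 0.88 (Spearman's rho 0.84), and at 0.88 without the 2 arches farthest from the median. Within wild-type arches r was 0.98 and within *Grhl2*-/- arches 0.99 (n = 5 each). With the sensory neuron sum r was 0.83 (0.98 within each genotype), and with the surface epithelium sum it was -0.86. Each pair of values shares a library and its normalization, and 72 such relations of 8 members with 9 marker lists were computed, so these values are given as a description.

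At a given glial marker level, less *Erbb3* was counted in *Grhl2*-/- arches. Wild-type arch 3, with a marker sum of 88.9 CPM, had 63.8 CPM of *Erbb3*, whereas *Grhl2*-/- arches 1 and 4, with 73.1 and 81 CPM of markers, had 25.9 and 33.1 CPM. Wild-type arch 4 had 89.8 CPM of *Erbb3* beside 133.5 CPM of markers, and *Grhl2*-/- arches 2 and 5 had 58.3 and 61.4 CPM beside 136.9 and 140.3 CPM. As a share of the marker sum, *Erbb3* was 177.7%, 158.4%, 71.7%, 67.3% and 66.3% in wild-type arches 1 to 5 and 35.4%, 42.6%, 51%, 40.8% and 43.8% in *Grhl2*-/- arches 1 to 5. Every wild-type share was above every *Grhl2*-/- share, and this held also without wild-type arches 1 and 2, whose shares were the highest.

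In fits with the mean log2 CPM of these markers as a covariate, an alternative chosen after seeing the data, the *Erbb3* log2 fold change was -0.7 (95% confidence interval -1.12 to -0.29) with an FDR of 0.0741 by limma-voom. The markers themselves had a median log2 fold change of 0.95. A gene that followed them within genotypes but kept its level between genotypes would come out lower in such a fit. For *Erbb3*, leaving out wild-type arches 1 and 2 alone gave -0.58 (FDR 0.378). The glial covariate without those arches, also left out after seeing the data, gave -0.66 (95% confidence interval -0.9 to -0.43) with an FDR of 0.00667. This is past the threshold and amounts to a wild-type level 1.59 times the *Grhl2*-/- level. Of the 14525 genes tested in that fit, 145 were called lower and 71 higher. With a sensory neuron covariate in place of the glial one the log2 fold change was -0.61 (FDR 0.14) with all arches and -0.48 (FDR 0.00936) without the 2. The latter fit called 133 genes lower and 57 higher of 14525. *Erbb3* is also made by epithelial cells of several organs. The epithelial marker sum was lower in every *Grhl2*-/- arch, with 5 of its 9 genes called lower and 4 not called. As given above, that sum does not measure the amount of epithelium. The part of either cell type in the *Erbb3* values was not tested.

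**Figure D2:**
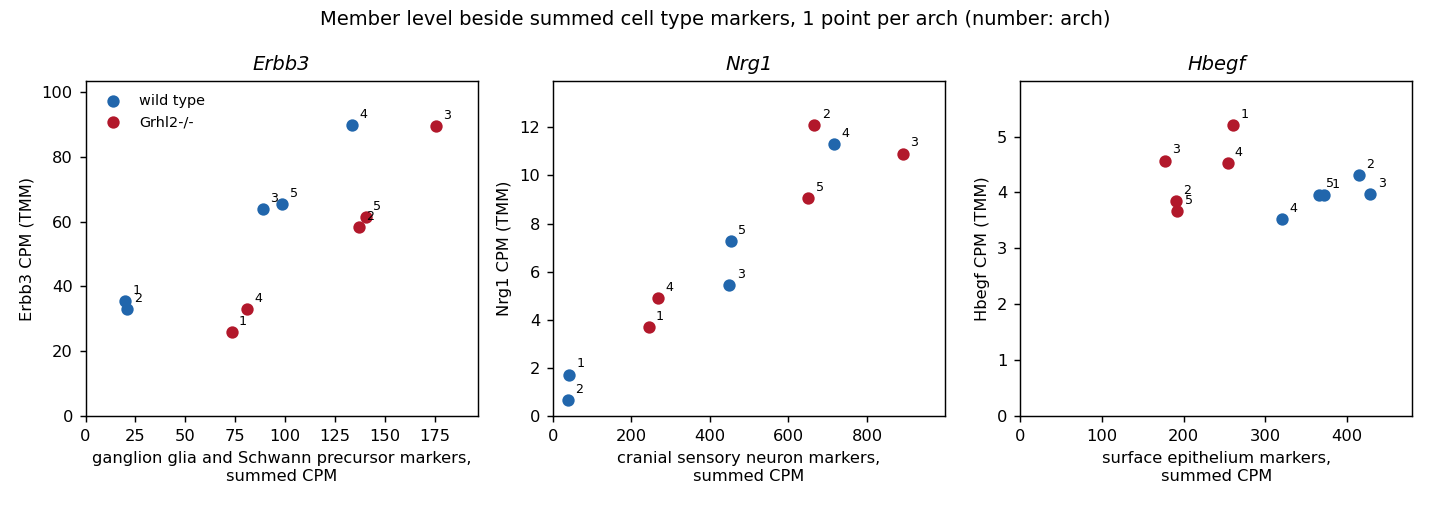
Level of *Erbb3*, *Nrg1* and *Hbegf* (vertical axes, CPM) against the summed CPM of a marker list (horizontal axes) in each of the 10 arches, numbered within genotype (blue, wild type; red, *Grhl2*-/-). *Erbb3* rises with the glial markers along a lower course in *Grhl2*-/- arches, *Nrg1* follows the sensory neuron markers along a shared course, and *Hbegf* in *Grhl2*-/- arches is within or above the wild-type range beside lower epithelial marker sums.

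Among the ligands, *Nrg1* (8:31814551-32884029, minus strand), which encodes the neuregulin that binds ERBB3 and ERBB4 and is carried on cranial sensory axons, had the widest spread. Its level was 1.73, 0.683, 5.44, 11.3 and 7.27 CPM in wild-type arches 1 to 5. *Grhl2*-/- arches 1 to 5 were at 3.71, 12.1, 10.9, 4.91 and 9.04 CPM. Wild-type arches 1 and 2 lay below all others, and the remaining arches of both genotypes overlapped. In wild-type PA1 the highest arch held 16.5 times the level of the lowest. Exons of an opposite-strand gene, *Gm26578*, overlap those of *Nrg1*.

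*Nrg1* averaged 5.28 ± 4.29 CPM over wild-type arches and 8.13 ± 3.68 CPM over *Grhl2*-/- ones (SD, n = 5 each). In the main limma-voom fit its log2 fold change of 1.04 was the largest of the members by size, with a SE of 0.64. The 95% confidence interval was -0.37 to 2.44 and the FDR 0.302. With edgeR and with DESeq2 the log2 fold change was 0.62, below the value of 1 for *Erbb4*. By limma-voom without wild-type arches 1 and 2 it was -0.07 (FDR 0.946), and with a sensory neuron covariate and all arches it was -0.01 (FDR 0.978). Leaving out either of the 2 arches by itself did not turn the sign, since all 10 fits without 1 arch gave between 0.41 and 1.47. No other pair of arches was left out for comparison.

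*Nrg1* deviations correlated with those of the cranial sensory neuron sum at Pearson's r of 0.96 (Spearman's rho 0.94; 0.95 without the 2 farthest arches) over the 10 arches. With the glial sum r was 0.94 (rho 0.9; 0.97 without the 2 farthest arches). Expressed as a share of the neuron sum, *Nrg1* was between 1.21% and 4.08% in wild-type (median 1.6%) and between 1.22% and 1.83% in *Grhl2*-/- arches (median 1.52%). These shares overlapped, unlike those of *Erbb3* over the glial sum. The 8 neuron markers, which include *Isl1*, *Pou4f1* and *Tubb3*, had a median log2 fold change of 1.86, with 0 of 8 called.

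*Egf* (3:129677565-129755316, minus strand), the founding ligand of the family, was at 2.32, 2.66, 2.75, 3.34 and 2.71 CPM in wild-type arches 1 to 5. *Grhl2*-/- arches 1 to 5 were at 3.5, 3.33, 2.67, 3.59 and 3.55 CPM. Of the *Grhl2*-/- arches 3 were above every wild-type arch, and arch 3 lay among the lower wild-type values. Means were 2.76 ± 0.371 and 3.33 ± 0.384 CPM (SD, n = 5 each), with a log2 fold change of 0.26 (SE 0.131, 95% confidence interval -0.03 to 0.55, FDR 0.213 by limma-voom). Without wild-type arches 1 and 2 it was 0.16 (FDR 0.624). Exons of 2 opposite-strand genes (*6330410L21Rik* and *Gm42697*) overlap those of *Egf*.

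*Hbegf* (18:36504927-36515805, minus strand), a heparin-binding ligand of EGFR and ERBB4, was at 3.95, 4.31, 3.97, 3.53 and 3.96 CPM in wild-type arches 1 to 5. In *Grhl2*-/- arches 1 to 5 it was at 5.21, 3.84, 4.57, 4.52 and 3.67 CPM. The groups overlapped, with 3 of the *Grhl2*-/- arches above every wild-type arch. *Hbegf* differed by 0.14 on the log2 scale (SE 0.116, 95% confidence interval -0.11 to 0.39, FDR 0.446 by limma-voom).

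Within genotypes, *Hbegf* moved with the surface epithelium marker sum, at Pearson's r of 0.87 over the 10 arches (Spearman's rho 0.81; 0.74 without the 2 farthest arches). Between genotypes it did not follow that sum. *Hbegf* came to between 0.927% and 1.1% of the epithelial sum in wild-type arches and to between 1.78% and 2.58% in *Grhl2*-/- arches, so that all *Grhl2*-/- shares were above all wild-type ones. Since the sum itself fell without overlap, a gene that kept its level could give such a separation, and the shares add nothing to the levels above. The marker list holds 5 genes that fell in this comparison, such as *Cdh1* and *Epcam*, and 4 that were not called, *Krt18* (71.8 ± 15.4 CPM over wild-type arches and 69.6 ± 19.4 CPM over *Grhl2*-/- ones, SD, n = 5 each) *Krt14* (9.6 ± 1.8 and 11.9 ± 1.84 CPM), *Krt8* (36.8 ± 8.31 and 28.4 ± 8.33 CPM) and *Trp63* (73.1 ± 5.78 and 61.9 ± 5.31 CPM), and the share moves mainly with the former.

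*Tgfa* (6:86195223-86275719, plus strand), an EGFR ligand of epithelia, did not differ beyond its spread. It was at 4, 4.71, 6.2, 4.33 and 5.25 CPM in wild-type arches 1 to 5 and at 5.71, 4.11, 3.84, 5.16 and 6.14 CPM in *Grhl2*-/- arches 1 to 5, with the genotypes interleaved. *Tgfa* differed by 0.01 on the log2 scale (SE 0.16, 95% confidence interval -0.34 to 0.36, FDR 0.98 by limma-voom). Its exons overlap those of *Gm43917* on the opposite strand.

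*Btc* (5:91357261-91402994, minus strand) and *Areg* (5:91139599-91148432, plus strand), which encode the EGFR ligands betacellulin and amphiregulin, were at or near the floor. *Btc* had between 0 and 4 reads per wild-type arch and between 0 and 6 per *Grhl2*-/- arch. *Areg* had between 0 and 1 read per wild-type arch and between 0 and 2 per *Grhl2*-/- arch. A difference between genotypes in these ligands was not detectable at this depth.

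**Figure D3:**
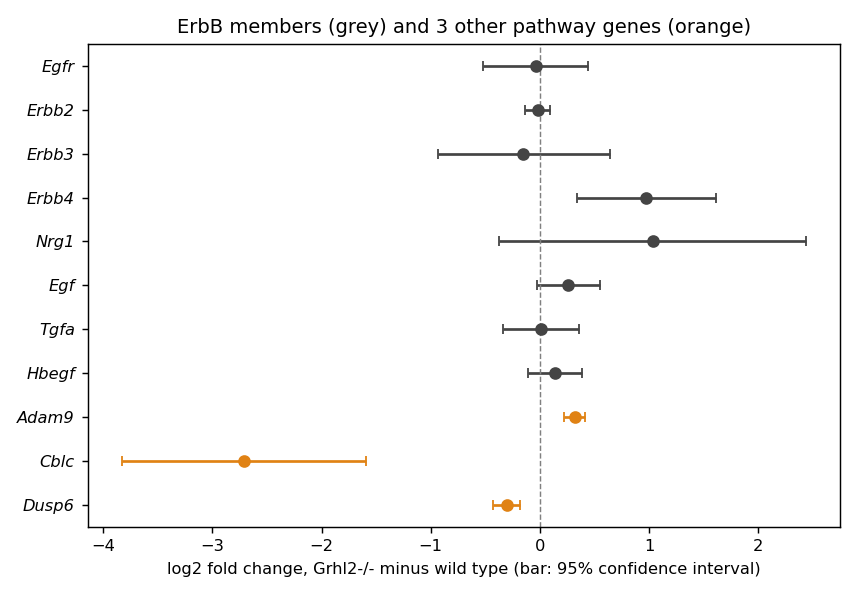
Log2 fold change of the 8 tested members (grey) and of 3 other pathway genes (orange), *Grhl2*-/- minus wild type, with 95% confidence intervals from limma-voom over 5 arches per genotype. The interval of *Erbb2* runs from -0.14 to 0.09 and that of *Nrg1* from -0.37 to 2.44; *Erbb4*, *Adam9*, *Cblc* and *Dusp6* have intervals that exclude 0, of which *Adam9* alone passed FDR 0.01.

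Other genes of the pathway were taken from 5 lists of 62 genes, of which 58 were tested. By limma-voom 0 of these 58 fell and 1 rose, against 1.09% and 0.879% of all genes tested, and 20 had an unadjusted p under 0.05, as did 28.5% of all genes. Their median log2 fold change was 0.04. The groups did not overlap in 4 genes that were higher and 4 that were lower in *Grhl2*-/- PA1, out of 58, where 4.22% and 4.66% of all genes tested did so.

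The remaining EGF-family ligands were scarce. *Nrg4*, *Ereg* and *Epgn* did not pass the filter. *Nrg2*, a neuregulin, had between 6 and 10 reads in wild-type and between 11 and 31 reads in *Grhl2*-/- arches, which did not overlap (log2 fold change 0.91, SE 0.302, FDR 0.0841 by limma-voom, and 0.296 without wild-type arches 1 and 2). The log2 value of *Nrg3*, a ligand of ERBB4, was 0.29 (FDR 0.73), and -0.03 without those 2 arches.

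Among 9 genes for the shedding of ligand precursors, *Adam9*, a metalloprotease able to cut the HB-EGF precursor, rose. Its level was 51, 52.8, 52.4, 53.8 and 55 CPM in wild-type arches 1 to 5 and 65.3, 69.7, 61, 67.9 and 66.8 CPM in *Grhl2*-/- arches 1 to 5. All *Grhl2*-/- arches were above all wild-type arches, with a gap larger than the spread of the wild-type group. The log2 fold change was 0.32 (SE 0.0437, 95% confidence interval 0.22 to 0.41, FDR 0.00166 by limma-voom), and *Adam9* was called in all 10 fits that left out an arch. Without wild-type arches 1 and 2 together it was 0.28 with an FDR of 0.0388, and with the glial covariate 0.3 with an FDR of 0.0101. With the number in the sample labels as a block it was 0.29 with an FDR of 0.0148.

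The major sheddases of the family did not pass the test: *Adam17* averaged 108.3 ± 2.34 CPM over wild-type and 111.6 ± 6.43 CPM over *Grhl2*-/- arches (FDR 0.557), and *Adam10* had 108.6 ± 8.35 and 114.8 ± 10.3 CPM (FDR 0.495). At the ends of this list, *Rhbdf1*, an inactive rhomboid that assists ADAM17, stood at -0.13 on the log2 scale (FDR 0.354) and the rhomboid protease gene *Rhbdl2* at 0.55 (FDR 0.699). *Rhbdl2* had at most 11 reads per arch, and its direction is not settled, since its value was -0.13 with edgeR and -0.11 with DESeq2. The list median was 0.13. *Adam17* and *Adam10* were chosen after their values were seen.

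Of 12 genes for receptor inhibition and turnover, 0 were called by limma-voom and the median log2 fold change was 0.04. *Cblc*, the epithelial member of the CBL family of ubiquitin ligases that send activated ErbB receptors to degradation, had 32, 21, 51, 28 and 32 reads in wild-type arches 1 to 5. In *Grhl2*-/- arches 1 to 5 it had 7, 1, 2, 10 and 11 reads. No *Grhl2*-/- arch reached the lowest wild-type count. The means were 1.26 ± 0.394 and 0.228 ± 0.171 CPM (SD, n = 5 each), with a fitted log2 fold change of -2.71 (95% confidence interval -3.83 to -1.59), which depends on the prior count for arches with so few reads.

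The FDR of *Cblc* was 0.0106 by limma-voom, just outside the threshold, 0.00943 by edgeR and 3.82e-05 by DESeq2, and 0.0278 by limma-voom without wild-type arches 1 and 2. Its ubiquitously expressed relatives *Cbl* and *Cblb* differed by 0.15 (FDR 0.322) and 0.05 (FDR 0.646) on the log2 scale. *Spry2*, a feedback inhibitor of receptor tyrosine kinase signalling, was at the upper end of the list with 0.16 (FDR 0.379). *Cbl* and *Cblb* were chosen after their values were seen.

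By limma-voom the 23 adaptors and relay genes held 0 calls and had a median log2 fold change of 0.02. They spanned a narrow range, from -0.23 for *Hras* (FDR 0.0256), a RAS GTPase, to 0.23 for *Mapk3* (FDR 0.0632), which encodes the kinase ERK1. *Hras* was called lower by DESeq2 (FDR 0.00145) and not by edgeR (FDR 0.0225). Of 12 tested genes that respond to ERK signalling, 0 were called by limma-voom and the median was -0.1. An unadjusted p under 0.05 was found for 7 of them, against 28.5% of all genes tested, with *Dusp6*, *Etv4*, *Etv5* and *Ccnd1* lower and *Ier3*, *Dusp5* and *Phlda1* higher; those outside the ends of the list are named after their values were seen. *Etv4*, an ETS transcription factor induced downstream of receptor tyrosine kinases, was at the lower end with -0.43 (FDR 0.0689), and *Ier3*, an immediate early gene, at the upper end with 1.07 (FDR 0.128). Without wild-type arches 1 and 2 these were -0.28 (FDR 0.233) for *Etv4*, 0.76 (FDR 0.438) for *Ier3* and, among the relay genes, an FDR of 0.281 for *Mapk3*.

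*Dusp6*, the ERK phosphatase whose transcription follows ERK activity, was just outside the threshold, and it is named after its values were seen. It was at 313.5, 314, 287.5, 266.4 and 267.9 CPM in wild-type arches 1 to 5 and at 255, 226.1, 235, 227.4 and 228.4 CPM in *Grhl2*-/- arches 1 to 5. No *Grhl2*-/- arch reached the lowest wild-type level. The fitted log2 fold change was -0.3 (95% confidence interval -0.43 to -0.18) with an FDR of 0.0104 by limma-voom, 0.00943 by edgeR and 1.38e-05 by DESeq2. Without wild-type arches 1 and 2, the highest for this gene, it was -0.24 with an FDR of 0.057 by limma-voom. Arch mesenchyme markers were also lower in *Grhl2*-/- arches. The 7 genes summed to between 1378.3 and 1746.7 CPM over wild-type and between 1123.3 and 1376.9 CPM over *Grhl2*-/- arches. These sums did not overlap, but only by a very narrow margin between wild-type arch 3 and *Grhl2*-/- arch 3. The median log2 fold change of the 7 genes was -0.29, and 1 of the 7 was called lower by limma-voom. Their sum was highest in wild-type arches 1 and 2. The ERK-responsive genes respond to other receptor tyrosine kinases of the arch as well as to ErbB receptors. The source of the difference in *Dusp6*, and the part of mesenchyme in it, was not tested.

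**Figure D4:**
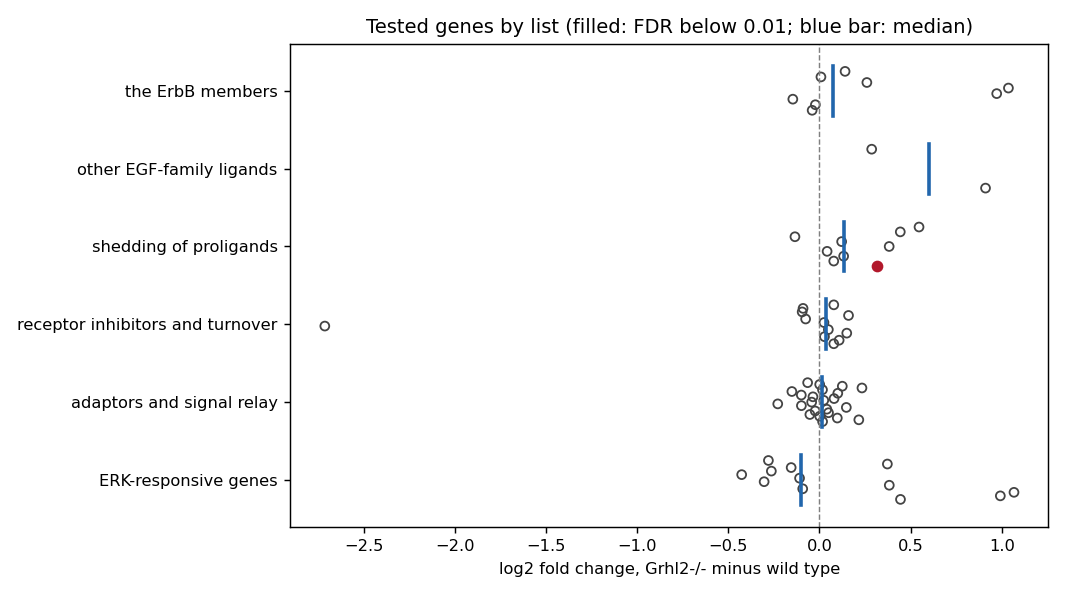
Log2 fold change (*Grhl2*-/- minus wild type) of each tested gene of the ErbB members and of the 5 pathway lists, 1 circle per gene, with the median of each list as a blue bar. The filled circle is *Adam9*, the only gene past FDR 0.01, and the outlying open circle at -2.71 is *Cblc*.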

How the data were processed

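RNA from PA1 of 5 wild-type and 5 *Grhl2*-/- embryos was sequenced by the authors, who aligned single-end reads to GRCm38 with STAR and deposited read counts per gene from featureCounts, without normalization. The labels of the series list edgeR 3.18.1 and limma 3.32.7 among the tools; other versions, the annotation release and the counting options are not given in the sources used here. A second deposited table holds the authors' own comparison of 15390 genes, as log2 fold changes, mean log2 levels and adjusted p-values. Those columns were not used, and 0 of the counts it repeats differed.

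Counts of the 14561 genes with at least 10 reads in at least 1 arch were normalized by TMM and tested with limma-voom (limma 3.58.1, edgeR 4.0.16, R 4.3.3), with genotype as the only term, two-sided, and Benjamini-Hochberg adjustment over all of them. Confidence intervals are limma's at 95%. CPM values are TMM-normalized. A prior count of 0.5 was added for log2 CPM. Coordinates and exon lengths are from GENCODE mouse release 21, in which 21721 of 22114 genes matched by identifier. No 2 arches of a genotype agreed within sampling noise (chi-square per gene between 7.05 and 25.5 over 20 pairs). Total counts were between 22188454 and 28801378 per arch.

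Also tried were DESeq2 1.42.0, edgeR's quasi-likelihood test, voomWithQualityWeights, median-of-ratios size factors, scaling by library size alone, 2 other count filters, an FDR of 0.05, the label number as a block, leaving out each arch, another gene length and, added after seeing the data, the fits without wild-type arches 1 and 2 and with marker covariates. On simulated counts of 14395 genes for this comparison with 200 changed 2-fold, the share recovered was 91% by limma-voom (0 false calls), 91% by edgeR (0) and 95% by DESeq2 (8). The changed genes were drawn only from those above a minimum mean count, which *Erbb4*, *Cblc* and *Nrg2* did not reach. Counts were simulated for each gene by itself, without swings that genes of an arch share. These shares thus do not apply to scarce genes or to genes that vary with cell content.

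Named are all members, in each pathway list the called genes and the genes at either end by log2 fold change, the 3 genes most like the tested member of lowest FDR, and others where so stated. The members, pathway lists and marker lists were chosen with earlier results of these data known. Single values of some marker genes are not reported here.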

Additional observations from a re-analysis of the deposited data

Results flagged for a closer look

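Dixon's test at its 95% critical value was applied to 60 groups of 5 arches, in which chance flags about 1 in 20. It singled out 2 of them. *Egf* in *Grhl2*-/- arch 3 was at 2.67 CPM, apart from the next value of its genotype at 3.33 CPM, with a gap of 0.718 of the range. The neural tube marker sum of *Grhl2*-/- arch 1 was 103.7 CPM, apart from the next at 65.5 CPM, with a gap of 0.864 of the range. The *Erbb4* level of that arch was the lowest of its genotype.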

How the results depend on the processing

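In every fit of all 10 arches, in each fit without 1 arch and in the fit without wild-type arches 1 and 2, 0 members were called. The glia covariate and the neuron covariate, each without those 2 arches, called 1 member lower (*Erbb3*), beside 145 and 133 of all 14525 genes tested. *Erbb4*, *Egf* and *Hbegf* kept their direction under every alternative run. Other signs turned. *Egfr* was at 0.22 with the label number as a replicate block and 0 with the neuron covariate without the 2 arches, and leaving out 1 arch gave -0.18 to 0.11. *Erbb2* was at 0.02 and 0.01 with the glia and neuron covariates (-0.06 to 0.02 without 1 arch), and *Erbb3* ranged from -0.37 to 0.08 without 1 arch. *Nrg1* was at -0.07 without the 2 arches, -0.2 and -0.01 with the glia and neuron covariates and -0.2 with the glia covariate without the 2 arches. *Nrg3* was at -0.03, -0.27, -0.09 and -0.24 in the same fits. *Tgfa* was at -0.06 with the replicate block, -0.1 without the 2 arches, -0.01 and -0.03 with the covariates and -0.08 and -0.14 with each covariate without the 2 arches (-0.08 to 0.1 without 1 arch). *Rhbdl2* was at -0.13 with edgeR and -0.11 with DESeq2 (-0.05 to 0.82 without 1 arch). Per kilobase of the longest coding transcript *Erbb2* was at 12.8, *Nrg1* at 0.975, *Egf* at 0.579, *Tgfa* at 1.08 and *Hbegf* at 1.66 CPM.

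Among the other pathway genes, those called lower were 2 with edgeR, 5 with DESeq2, 1 with voomWithQualityWeights, 1 with median-of-ratios size factors, 1 without the filter, 2 with the filter in 5 arches, 5 at FDR 0.05, 1 with each covariate without the 2 arches, and 0 to 1 without 1 arch. Those called higher were 3 with DESeq2 and at FDR 0.05, and 0 with the replicate block, without the 2 arches, with the glia covariate and with each covariate without the 2 arches. Of all genes, 553 were lower and 520 higher with DESeq2, 564 and 559 at FDR 0.05, 69 and 60 with the replicate block, and 90 and 19 without the 2 arches. Higher genes were 204 with voomWithQualityWeights, 51 and 63 with the glia and neuron covariates, and 71 and 57 with each covariate without the 2 arches. Without 1 arch, 110 to 249 were lower and 42 to 143 higher. The cause of these changes was not tested.

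The label number joins 5 pairs of arches across genotypes, whose deviations correlated at -0.237 to 0.42 (mean 0.105; 20 other pairs, -0.435 to 0.342, mean -0.025). The meaning of the number is not in the labels, and not every pair correlated, so the number was not taken as a pairing. With the replicate block 94 of the 286 calls remained and the *Adam9* FDR was 0.0148. *Grhl2*-/- arches 2 and 5 carry numbers found in no other arch, so the genotype estimate of that fit rests on the remaining arches. The fall in calls thus cannot be put down to the blocking alone. Depth limits *Btc* and *Areg*, and the part of depth in the spread of *Erbb4* was not tested.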
